A study of Homo sapiens with 9 samples.

Results

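The genes described here are the expressed members of the numbered zinc finger family, whose symbols begin with ZNF, in BxPC3 cells. They were all rows of the deposited expression table with a symbol of ZNF, a number and at most 1 closing letter, and a mean of at least 2 FPKM over the 9 libraries. This took 183 of 556 such rows, in a table of 60564 gene rows. FPKM counts sequenced fragments scaled by the length of the transcript and the size of the library. The members were thus chosen by their mean level, so the height of their level is no finding. The rule uses no contrast between groups, but it was set with earlier results of these data known.

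A classical zinc finger is a short loop in which a pair of cysteines and a pair of histidines hold a zinc ion, and arrays of such fingers read DNA. Most human ZNF genes arose by repeated duplication, many of them in clusters on chromosome 19, and the largest class also carries a KRAB box, which recruits the corepressor TRIM28 and the histone methyltransferase SETDB1 to silence retroelements and other targets. Others act outside this scheme, in ribosome assembly, RNA processing, mitosis, the actin skeleton or promoter activation.

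BxPC3 is an established human pancreatic ductal adenocarcinoma line. A first group of 3 libraries came from cells transfected with siRNA against STAT3, a second group of 3 from cells given 0.1 µM WB436B, a compound named only by its code, and the third group of 3 from cells given vehicle. No non-targeting siRNA group is named in the labels, so the siRNA group differs from vehicle in transfection as well as in STAT3. The labels call the libraries of a group biological replicates without saying more, so the p-values rest on the spread between such libraries, which may be technical.

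STAT3 itself stood at 2.98, 2.58 and 3.02 FPKM after the siRNA, which is 18.1% of the vehicle mean. Under vehicle it had 16.4, 15.8 and 15.1 FPKM. The WB436B libraries held 10.5, 10.9 and 10.8 FPKM, all below the vehicle libraries, at 68.0% of the vehicle mean. Estimated depth was 14900000 to 20400000 fragments in 8 libraries and 47200000 in vehicle replicate 1. A gene at 2 FPKM then rested on 29.8 to 94.4 fragments per kilobase of transcript. The ductal keratins KRT19 (322 to 732 FPKM) and KRT7 (232 to 474 FPKM) and the epithelial marker EPCAM (27.9 to 40.2 FPKM) were present in every library, and SMAD4, which this line is known to have lost, was listed at 0 in all 9. In such bulk libraries a smaller share of cells expressing a gene and less RNA per cell cannot be told apart.

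The members were mostly weak. Their mean level had a median of 3.97 FPKM and ran up to 52.0 FPKM, with 23 members at 10 FPKM or more and 5 at 20 FPKM or more. All 183 passed the filter of the test, and 172 of them reached 1 FPKM in every library. Just inside the limit of 2 FPKM were ZNF57 (2.05 FPKM), ZNF195 (2.05 FPKM) and ZNF140 (2.02 FPKM), and just outside it were ZNF76 (1.99 FPKM), ZNF180 (1.98 FPKM) and ZNF271P (1.92 FPKM).

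The name was checked against the sequence of the coding transcripts. Of the 180 protein-coding members, 176 held at least 1 run of letters with the spacing of a C2H2 finger, with a median of 9 and up to 35 fingers in ZNF142. No finger of this spacing was found in ZNF185, ZNF330, ZNF503 or ZNF703. ZNF185 is known as a LIM-domain protein of the actin skeleton and ZNF330 as a nucleolar protein. A KRAB box was found in 77 members, 67 members lay on chromosome 19, and 3 were pseudogenes (ZNF767P, ZNF252P and ZNF321P). Over 10% of the exon bases of 52 members lay within other gene models too, and values of these genes are less certain.

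After STAT3 siRNA the members moved in both directions and most did not pass the test. Of the 183, 49 rose and 25 fell (26.8% and 13.7%), and 109 were not called, at an adjusted p under 0.05 from a limma fit over 12747 genes. Among all tested genes 29.8% rose and 22.3% fell. Among the other genes of like mean FPKM, weighted to the members' levels, 29.7% rose and 21.1% fell. The share of members that rose was thus close to the background, and the share that fell was below it. All 3 siRNA libraries lay above all 3 vehicle libraries in 64 members and below them in 26, against 35.1% and 25.3% of all tested genes. The median log2 change of the members was 0.12, beside 0.07 for the other genes of like level.

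Under WB436B the balance ran the other way, with 33 members higher, 81 lower and 69 not called (18.03% and 44.26%). Among all tested genes 24.9% were higher and 41.1% lower, and among the other genes of like level 22.1% and 42.4%. All 3 WB436B libraries lay above all vehicle libraries in 35 members and below them in 88, against 26.8% and 43.3% of all tested genes. The median log2 change of the members was -0.17, beside -0.15 for the other genes of like level. So the share of ZNF genes that fell was near that of any genes this weakly expressed. This balance changed with the scaling between libraries, as median-of-ratios scaling gave 55 members higher and 60 lower (median 0.04) and quantile normalization 51 higher and 51 lower (median 0.02). These scalings moved the median of all tested genes to 0.10 and 0.03, against -0.13 for FPKM as deposited.

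The direct comparison of WB436B with STAT3 siRNA gave 27 members higher, 95 lower and 61 not called. That is 14.8% higher and 51.9% lower, beside 20% and 44.1% of all tested genes and 16.8% and 46.0% of the other genes of like level. The libraries of the treatments did not overlap in 30 members that were higher under WB436B and 99 that were lower, against 22.7% and 47.5% of all tested genes. The median log2 difference was -0.32 for the members and -0.21 for the other genes of like level. That gap of -0.106 was 0.00712, close to 0 and of the opposite sign, with membership at a mean of 5 FPKM. By range of level, however, members stood lower at 5 to 10 FPKM (median -0.38 in 30 members, beside -0.14 in other genes). They also did at 10 to 20 FPKM (-0.15 in 18 members, beside -0.01). Only the 5 members at 20 FPKM or more stood higher (0.38, beside 0.09). So the pooled value does not show that the gap was absent above 5 FPKM. Under median-of-ratios scaling the median difference was -0.04 for the members and 0.06 for the others, and the calls were 52 higher and 68 lower. Quantile normalization gave 40 higher and 69 lower. Both comparisons against vehicle use the same 3 vehicle libraries, so only this direct comparison tests how the treatments differ.

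The share called higher under WB436B was lowest in the weakest range among the members, as it was among the other genes. Of the 60 members with a mean of 2 to 3 FPKM, 4 were higher and 26 lower (6.67% and 43.3%), beside 14.1% and 48.6% of the other genes in this range. Of the 70 between 3 and 5 FPKM, 10 were higher and 36 lower (14.3% and 51.4%), beside 20.4% and 43.7% of the others. All 5 members at 20 FPKM or more were higher, against 43.8% of the 1784 other genes at this level. These ranges use the mean of all 9 libraries, so ZNF593 and ZNF770, which were under 20 FPKM in vehicle, entered the range through the treated libraries. With the level taken from the vehicle libraries alone, a choice made after the data were seen, 4 members were at 20 FPKM or more, of which 3 were higher and 1 (ZNF385A) lower, beside 35.9% and 33.4% of 1742 other genes.

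Summed over the members, the WB436B libraries held 962 to 975 FPKM, the STAT3 siRNA libraries 1111 to 1129 FPKM and the vehicle libraries 1023 to 1059 FPKM. As a share of each library's total FPKM this was 0.346% to 0.362% under WB436B, 0.399% to 0.408% after the siRNA and 0.338% to 0.372% under vehicle. The sums did not overlap between groups, but the shares under WB436B lay within the vehicle range, and only the siRNA libraries stood apart on both scales.

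**Figure D1:**
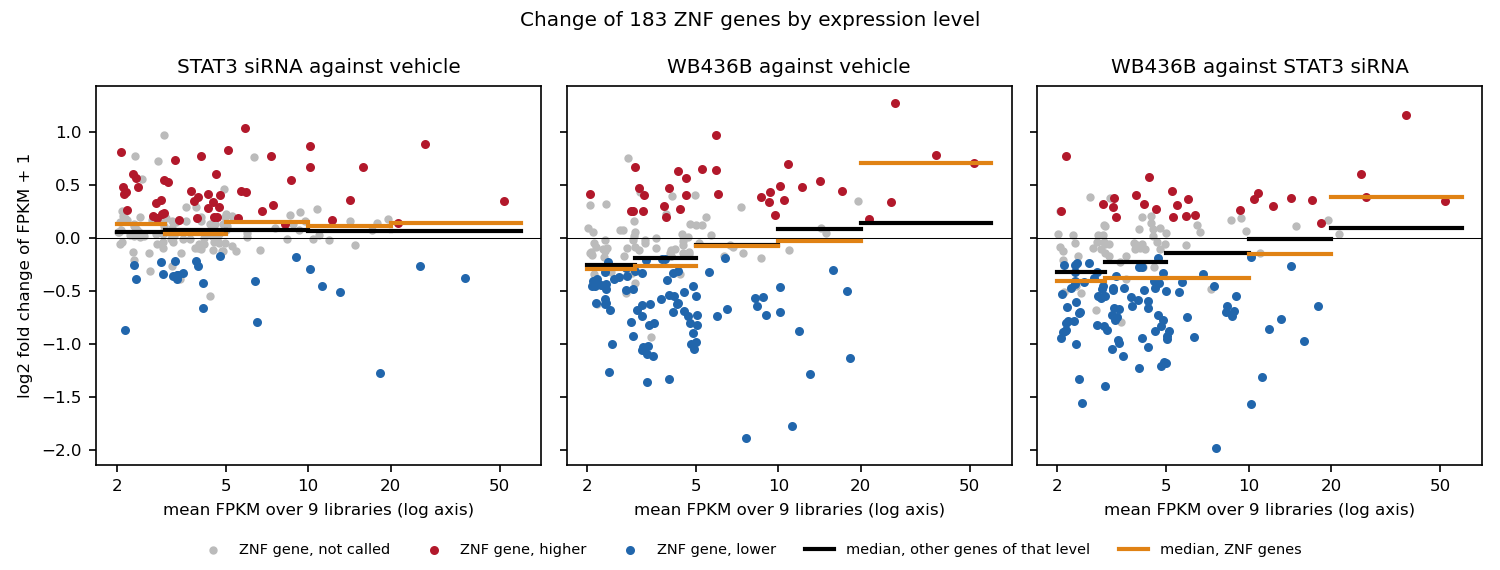
Log2 change of each ZNF gene against its mean FPKM (log axis) in the 3 comparisons. Red and blue points passed the test, grey points did not, and horizontal lines give the median of the ZNF genes (orange) and of the other genes (black) in each range of level. Under WB436B the points below 5 FPKM lie mostly below 0 and the 5 points at 20 FPKM or more, by the mean of all 9 libraries, lie above it.

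The most abundant member was ZNF146, a protein made almost only of fingers that is known to be overexpressed in pancreatic and colorectal cancers. It had 64.7, 65.2 and 66.2 FPKM under WB436B and 50.8, 51.8 and 50.2 FPKM after STAT3 siRNA, against 37.8, 38.9 and 42.4 FPKM under vehicle. The 3 groups did not overlap. Its log2 change was 0.71 under WB436B (adjusted p = 3.1e-06) and 0.35 after the siRNA (adjusted p = 0.00034). ZNF770, another abundant member, moved little, with 22.6, 21.9 and 23.0 FPKM under WB436B against 19.05, 20.35 and 19.76 FPKM under vehicle (log2 change 0.18, adjusted p = 0.0082).

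ZNF664 stood apart, because replicate 2 was low in 2 of the groups. It had 32.8, 4.22 and 31.7 FPKM after STAT3 siRNA, 18.56, 20.19 and 18.97 FPKM under WB436B, and 21.8, 7.18 and 20.4 FPKM under vehicle. No comparison of it was called. In all, 25 of 183 members (13.7%) differed by 2-fold or more within a group, beside 7.13% of 9585 other genes at 2 FPKM or more. Between 2 and 3 FPKM alone the shares were 21.7% of members and 14.4% of other genes, a difference that was not tested. In ZNF41, ZNF672, ZNF766 and ZNF888 the highest library of a group stood 8.17, 6.19, 5.06 and 4.98 times above its lowest.

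Members that act on RNA and ribosomes were mostly higher under WB436B. This list holds 8 members, and under WB436B 5 rose and 1 fell against vehicle, with a median log2 change of 0.34. Of all tested genes 24.9% rose and 41.1% fell. However, ZNF593, ZNF622, ZNF385A, ZNF330 and ZNF598 had means of 10 FPKM or more, where a larger share of genes rose. Of other genes at 10 to 20 FPKM 39.8% rose and 30.7% fell, and at 20 FPKM or more 43.8% and 25.4%. Median-of-ratios scaling and quantile normalization each gave 7 higher and 1 lower for the list. Against STAT3 siRNA all 8 were higher under WB436B, with a median difference of 0.31. Of all tested genes 20% were higher and 44.1% lower in this comparison. Under each of the other 3 scalings 7 or 8 of the list were higher. After the siRNA, 2 of the list rose and 2 fell against vehicle, beside 29.8% and 22.3% of all tested genes. ZNF473, which acts on histone pre-mRNA, was not on this list. With FPKM as deposited it was not called between the treatments.

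ZNF622, the human relative of a yeast factor that matures the large ribosomal subunit, had 31.5, 32.3 and 31.3 FPKM under WB436B and 20.1, 20.1 and 21.4 FPKM after STAT3 siRNA, against 25.2, 24.2 and 25.2 FPKM under vehicle. The groups were separate, with vehicle between the treatments. The log2 change was 0.34 under WB436B (adjusted p = 0.00011) and -0.27 after the siRNA (adjusted p = 0.00084), and WB436B exceeded the siRNA by 0.61 (adjusted p = 5.3e-06). ZNF593, which helps export the precursor of the same subunit, had 41.0, 36.3 and 34.0 FPKM under WB436B and 28.0, 27.0 and 29.4 FPKM after the siRNA, against 15.5, 11.6 and 17.6 FPKM under vehicle. Its log2 changes were 1.27 under WB436B and 0.89 after the siRNA (adjusted p = 4.3e-05 and 0.00064), but all its exon bases lie under another gene model as well, so fragments of that model cannot be told apart from its own.

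ZNF598, the ubiquitin ligase that marks collided ribosomes, had 15.2, 12.8 and 13.9 FPKM under WB436B and 10.9, 9.21 and 10.4 FPKM after STAT3 siRNA, against 8.43, 9.81 and 6.69 FPKM under vehicle. It rose under WB436B (log2 change 0.70, adjusted p = 0.0011), while its siRNA value of 0.27 was not called (adjusted p = 0.093). ZNF330 and ZNF106, an RNA-binding protein, rose under WB436B by 0.48 and 0.34. ZNF326, which links RNA polymerase II to splicing, and ZNF638, a splicing regulator, were not called against vehicle (0.20 and 0.12), though both were higher under WB436B than after the siRNA (0.32 and 0.20).

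ZNF385A was the exception in this group. It binds double-stranded RNA and is known as a partner of p53. Its level was 12.05, 11.70 and 11.59 FPKM after STAT3 siRNA and 13.4, 12.9 and 13.1 FPKM under WB436B, against 30.3, 29.2 and 30.4 FPKM under vehicle. Each treated library lay far below each vehicle library, at 39.3% of the vehicle mean after the siRNA and 43.9% under WB436B. This was the largest fall of any member after STAT3 siRNA (log2 change -1.28, SE 0.04, adjusted p = 1.9e-07), and under WB436B the change was -1.13 (adjusted p = 1.2e-07).

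ZNF473 was the member with the largest rise after STAT3 siRNA. It is a subunit of the machinery that cleaves replication-dependent histone pre-mRNA. Its level was 7.47, 7.49 and 7.49 FPKM after the siRNA and 7.20, 6.71 and 7.36 FPKM under WB436B, against 3.19, 3.10 and 3.06 FPKM under vehicle. Both treatments stood clear of vehicle, with log2 changes of 1.04 after the siRNA (adjusted p = 1.1e-06) and 0.98 under WB436B (adjusted p = 5.6e-07). The treatments themselves were not called different (-0.07, adjusted p = 0.23), but under median-of-ratios scaling WB436B was called higher than the siRNA (0.24, adjusted p = 0.0018).

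The 2 expressed members of the mitosis and replication list both rose under WB436B. ZNF207, which loads the checkpoint protein BUB3 on kinetochores, had 16.6, 18.1 and 18.1 FPKM under WB436B and 13.3, 13.5 and 13.0 FPKM after STAT3 siRNA, against 10.1, 12.6 and 12.7 FPKM under vehicle. ZNF367, a factor tied to the cell cycle, had 6.88, 6.92 and 6.95 FPKM under WB436B and 5.19, 4.74 and 4.50 FPKM after the siRNA, against 3.98, 3.34 and 4.86 FPKM under vehicle. WB436B libraries were above all others for both genes. Their log2 changes under WB436B were 0.54 (adjusted p = 0.0004) and 0.66 (adjusted p = 0.00047), and neither was called after the siRNA.

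**Figure D2:**
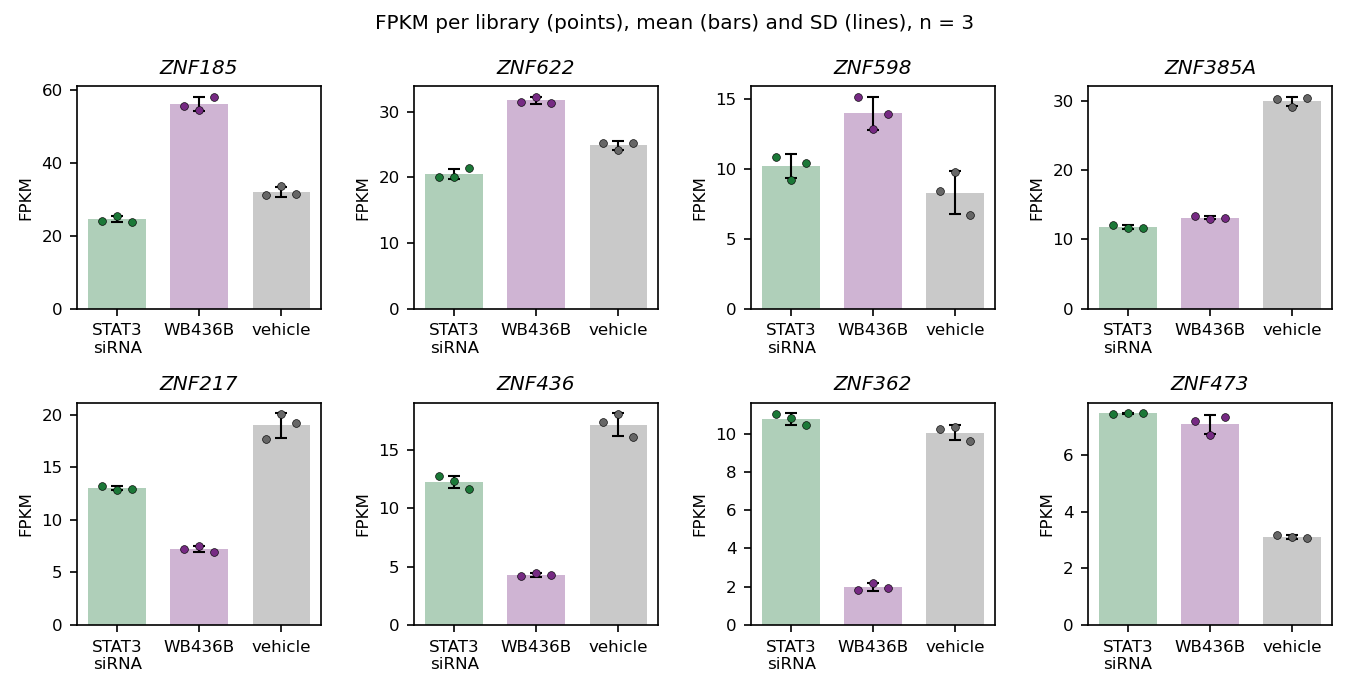
FPKM of 8 ZNF genes in each library (points), with the mean (bars) and SD (lines) of 3 libraries per group. ZNF362, ZNF436 and ZNF217 are lowest under WB436B, ZNF385A is low and ZNF473 high after either treatment, and ZNF185 and ZNF622 are highest under WB436B and lowest after STAT3 siRNA.

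The list of members known from epithelia and carcinomas held 5 genes. All 5 were called in at least 1 comparison against vehicle, as were 78.8% of all tested genes. After STAT3 siRNA 1 rose and 4 fell, beside 29.8% and 22.3% of all tested genes. Under WB436B 1 rose and 3 fell, beside 24.9% and 41.1%. The counts of the list were the same under the 3 other scalings. ZNF185, the actin-skeleton protein, had 55.5, 54.5 and 58.1 FPKM under WB436B and 24.1, 25.4 and 23.8 FPKM after STAT3 siRNA, against 31.1, 33.6 and 31.3 FPKM under vehicle. The treatments lay on opposite sides of vehicle without overlap. WB436B exceeded the siRNA by 1.16 on the log2 scale (SE 0.05, adjusted p = 4.4e-07), the largest positive difference among the members.

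ZNF703, a transcriptional repressor known as an oncogene in luminal breast cancer, showed the opposite order. It had 5.30, 5.15 and 4.57 FPKM under WB436B and 15.9, 17.1 and 17.3 FPKM after STAT3 siRNA, against 8.19, 8.41 and 9.70 FPKM under vehicle. Its log2 change was -0.70 under WB436B and 0.87 after the siRNA (adjusted p = 4.9e-05 and 3.1e-05). ZNF750, a transcription factor of epidermal differentiation, fell to 1.22, 1.38 and 1.44 FPKM under WB436B and to 3.41, 3.72 and 3.64 FPKM after the siRNA, against 5.31, 5.48 and 4.30 FPKM under vehicle. ZNF165, an antigen of testis and tumours, fell after the siRNA to 1.24, 0.852 and 1.16 FPKM, against 2.35, 2.76 and 3.29 FPKM under vehicle (log2 change -0.86, adjusted p = 0.00024). Under WB436B it had 2.36, 2.57 and 2.77 FPKM and was not called.

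ZNF217 is amplified in breast and other carcinomas and sits in repressor complexes with CtBP and LSD1. It had 13.2, 12.9 and 13.0 FPKM after STAT3 siRNA and 7.209, 7.484 and 6.997 FPKM under WB436B, against 17.74, 20.05 and 19.22 FPKM under vehicle. The 3 groups were separate, and the fall was deeper under WB436B (log2 change -1.28, adjusted p = 2.6e-07) than after the siRNA (-0.51, adjusted p = 7.8e-05), with a difference of -0.77 between the treatments (adjusted p = 5e-06). The 250 bases before its annotated start are shown because it fell in both comparisons. They come from RefSeq on GRCh38.p14 at chr20:53593840-53594089, minus strand, and are printed 5′ to 3′. They hold neither the STAT-type letters TTCNNNGAA nor the AP-1 letters TGANTCA nor the ZNF143-type letters ACTACAA on either strand, and 72.4% of them are G or C.
ZNF217: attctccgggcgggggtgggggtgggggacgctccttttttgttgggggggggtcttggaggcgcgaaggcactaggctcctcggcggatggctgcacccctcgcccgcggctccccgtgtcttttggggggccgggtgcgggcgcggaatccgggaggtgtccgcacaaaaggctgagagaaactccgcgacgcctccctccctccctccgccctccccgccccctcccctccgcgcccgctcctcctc

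The deepest falls of any member under WB436B were in ZNF362 and ZNF436, and both were lower than after STAT3 siRNA as well, by 1.98 and 1.32 on the log2 scale (adjusted p = 1.1e-07 and 5.5e-07). ZNF362, a close relative of ZNF384 with 6 fingers, had 1.84, 2.20 and 1.93 FPKM under WB436B and 11.04, 10.83 and 10.44 FPKM after the siRNA, against 10.3, 10.3 and 9.59 FPKM under vehicle. Only the WB436B libraries were low, at 19.8% of the vehicle mean. The log2 change under WB436B was -1.89 (SE 0.06, adjusted p = 8.4e-08), and the siRNA value of 0.09 was not called (adjusted p = 0.23). Its upstream 250 bases, at chr1:33256242-33256491 on the plus strand of GRCh38.p14 (RefSeq), were 86.8% G or C and held none of the 3 motifs.
ZNF362: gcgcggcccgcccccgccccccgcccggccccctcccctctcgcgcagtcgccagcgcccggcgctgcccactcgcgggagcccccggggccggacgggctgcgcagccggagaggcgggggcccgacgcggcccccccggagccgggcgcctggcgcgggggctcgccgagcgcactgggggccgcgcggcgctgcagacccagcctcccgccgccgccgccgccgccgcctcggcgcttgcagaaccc

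ZNF436, a KRAB member with 12 fingers, had 4.16, 4.49 and 4.29 FPKM under WB436B and 12.7, 12.3 and 11.7 FPKM after STAT3 siRNA, against 17.34, 18.04 and 16.09 FPKM under vehicle. The groups were separate in that order, and the log2 change was -1.77 under WB436B (adjusted p = 8.9e-08) and -0.46 after the siRNA (adjusted p = 0.00022). ZNF516, a partner of PRDM16 in brown fat, had 1.57, 1.56 and 1.51 FPKM under WB436B and 4.95, 5.23 and 4.75 FPKM after the siRNA, against 5.028, 6.003 and 5.169 FPKM under vehicle. It fell under WB436B (-1.33, adjusted p = 7.1e-07) and was not called after the siRNA (-0.10). In all, 15 members were called at least 2-fold lower under WB436B on the log2(FPKM + 1) scale and 1 at least 2-fold higher, beside 7.93% and 2.54% of all tested genes.

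ZNF697, with 11 fingers, moved the opposite way. It had 5.88, 5.66 and 6.08 FPKM under WB436B and 3.61, 3.51 and 3.74 FPKM after STAT3 siRNA, against 3.42, 3.35 and 3.52 FPKM under vehicle. Only the WB436B libraries were high, with a log2 change of 0.63 (adjusted p = 6.4e-06), and the siRNA value was 0.06 (adjusted p = 0.33). Its upstream bases are at chr1:119648267-119648516 on the minus strand of GRCh38.p14 (RefSeq) and hold the ZNF143-type letters ACTACAA in capitals, starting 79 bases before the gene start.
ZNF697: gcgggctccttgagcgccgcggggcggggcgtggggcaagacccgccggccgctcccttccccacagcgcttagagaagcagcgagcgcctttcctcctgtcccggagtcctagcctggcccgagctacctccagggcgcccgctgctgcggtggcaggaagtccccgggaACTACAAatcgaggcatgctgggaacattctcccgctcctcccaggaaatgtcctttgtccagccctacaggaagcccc

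**Figure D3:**
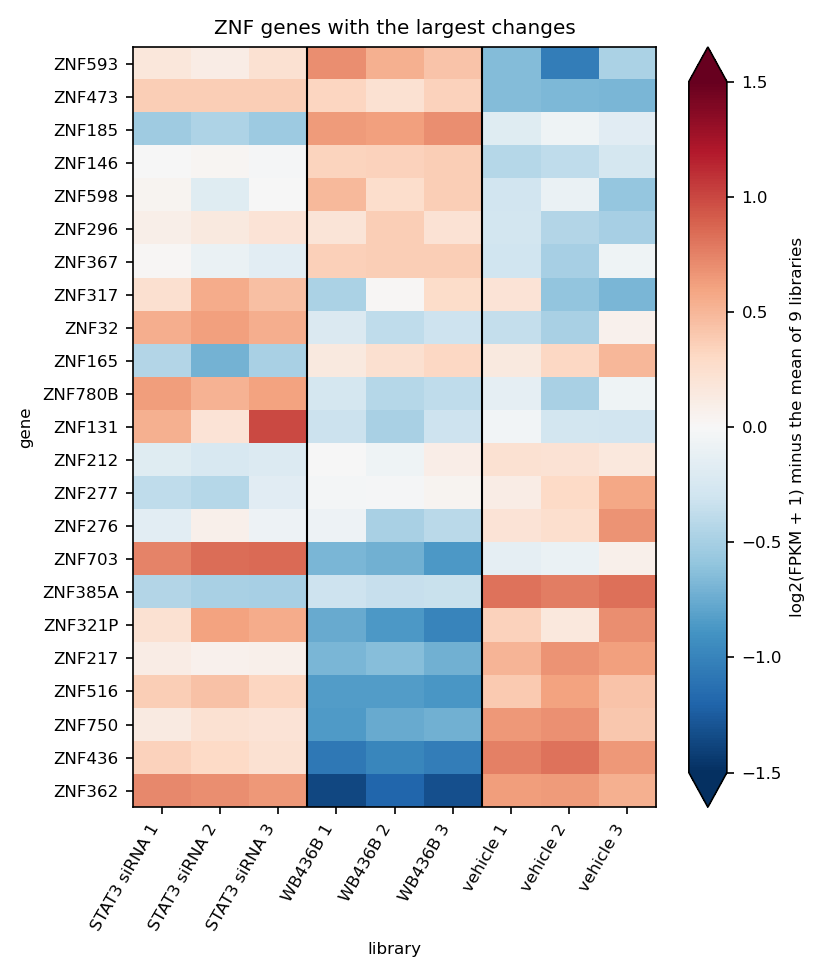
Levels of the 23 ZNF genes with the largest called changes against vehicle, as log2(FPKM + 1) minus the mean of the 9 libraries, with a row per gene and a column per library. The rows run by the change under WB436B, with ZNF593 at the top and ZNF362 at the bottom, and ZNF32, ZNF780B, ZNF131 and ZNF703 are highest after STAT3 siRNA.

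Some members rose after STAT3 siRNA and were not called under WB436B. ZNF280C had 5.02, 5.00 and 4.54 FPKM after the siRNA, against 2.55, 2.66 and 2.34 FPKM under vehicle (log2 change 0.74, adjusted p = 2.8e-05). Its WB436B libraries, at 2.45, 2.53 and 2.26 FPKM, overlapped vehicle, with a log2 change of -0.04 (adjusted p = 0.57). Under median-of-ratios scaling and quantile normalization it was called higher under WB436B too, by 0.17 and 0.23 (adjusted p = 0.039 and 0.012). ZNF32, which shares 38.6% of its exon bases with another gene model, had 7.50, 7.97 and 7.54 FPKM after the siRNA, against 3.55, 3.17 and 5.09 FPKM under vehicle. ZNF780B had 3.51, 3.21 and 3.46 FPKM after the siRNA, against 1.68, 1.10 and 1.79 FPKM under vehicle. Both stood above their vehicle and WB436B libraries, and WB436B was lower than the siRNA in all 3 genes, by 0.78, 0.87 and 0.94 on the log2 scale. ZNF202, known as a repressor of lipid metabolism genes, was instead higher after either treatment, with 5.19, 5.43 and 5.57 FPKM after the siRNA and 5.17, 5.08 and 5.47 FPKM under WB436B, against 3.08, 3.45 and 3.08 FPKM under vehicle.

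Promoter and chromatin regulators formed a list of 14 members. After STAT3 siRNA 4 rose and none fell, beside 29.8% and 22.3% of all tested genes. These were ZNF592, ZNF462, ZNF639 and ZNF335, with log2 changes of 0.55, 0.61, 0.53 and 0.45. ZNF592 belongs to a chromatin complex with ZNF687 and ZNF532, and ZNF335 is a subunit of a histone methyltransferase complex. Under WB436B 3 of the 14 rose (ZNF639 by 0.48, ZNF143 by 0.26 and ZNF644 by 0.22) and 3 fell (ZNF395, ZNF274 and ZNF687), beside 24.9% and 41.1% of all tested genes. Their balance turned with the scaling, to 6 higher and 2 lower under median-of-ratios scaling and 4 and 1 under quantile normalization, with medians of 0.13 and 0.10 against -0.13 for FPKM as deposited. ZNF395, a hypoxia-induced factor that shares 34.9% of its exon bases with another gene model, stood at 6.37, 6.21 and 6.03 FPKM under WB436B against 10.1, 9.93 and 8.80 FPKM under vehicle. ZNF274, a KRAB protein known to bring SETDB1 to ZNF gene clusters, had 1.97, 2.26 and 2.17 FPKM under WB436B against 3.07, 3.09 and 2.99 FPKM under vehicle. Its fall of 0.37 lost its call under quantile normalization. ZNF687 fell by 0.62 and was not called under median-of-ratios scaling or quantile normalization. Of 7 known retroelement repressors in the table, only ZNF587 reached a mean of 2 FPKM, and it was not called against vehicle.

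The KRAB members, at a median level of 3.17 FPKM, were weaker than the coding members without a KRAB box found, at 4.46 FPKM. Of the 77, 9 rose and 39 fell under WB436B against vehicle, with a median log2 change of -0.22 beside -0.19 for other genes of like level. Of the 103 others, 24 rose and 39 fell, with a median of -0.14 beside -0.12. By its median each class thus lay near other genes of its own level. By calls, 11.7% of the KRAB members rose and 50.6% fell, beside 19.3% and 44.6% of other genes of like level. Of the coding members without a box found 23.3% rose and 37.9% fell, beside 24.4% and 40.7%. These differences in share were not tested. Median-of-ratios scaling turned the KRAB counts to 16 higher and 26 lower (median -0.03) and those of the others to 39 higher and 31 lower (median 0.10). Against STAT3 siRNA, WB436B left 6 KRAB members higher and 44 lower (7.79% and 57.1%), beside 14.4% and 48.3% of other genes of like level. Their median was -0.41, beside -0.25 for those genes. The KRAB counts were 17 higher and 29 lower (median -0.17) under median-of-ratios scaling, and 13 and 29 (median -0.14) under quantile normalization. After the siRNA 16 KRAB members rose and 6 fell against vehicle (20.8% and 7.79%), beside 28.9% and 20.5% of other genes of like level, and 10 and 8 did under median-of-ratios scaling.

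The members were also split by the number of fingers. Against STAT3 siRNA, WB436B left 14 of the 39 coding members with 0 to 4 fingers higher and 14 lower, beside 20.8% and 42.1% of other genes of like level. Among the 79 with 10 or more fingers 8 were higher and 44 lower, beside 15.2% and 47.3% of such genes. Median-of-ratios scaling gave 19 higher and 13 lower for the first class and 20 higher and 31 lower for the second. The few-fingered class holds most of the RNA and ribosome members and averages a higher level, with a median of 5.26 FPKM against 3.58 FPKM. The 3 pseudogenes all fell under WB436B, by a median of 1.05 on the log2 scale, beside 47.0% of other genes of like level. Under quantile normalization 2 of the 3 were called lower. ZNF767P had 2.15, 2.39 and 2.43 FPKM under WB436B against 5.68, 6.67 and 5.29 FPKM under vehicle.

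**Figure D4:**
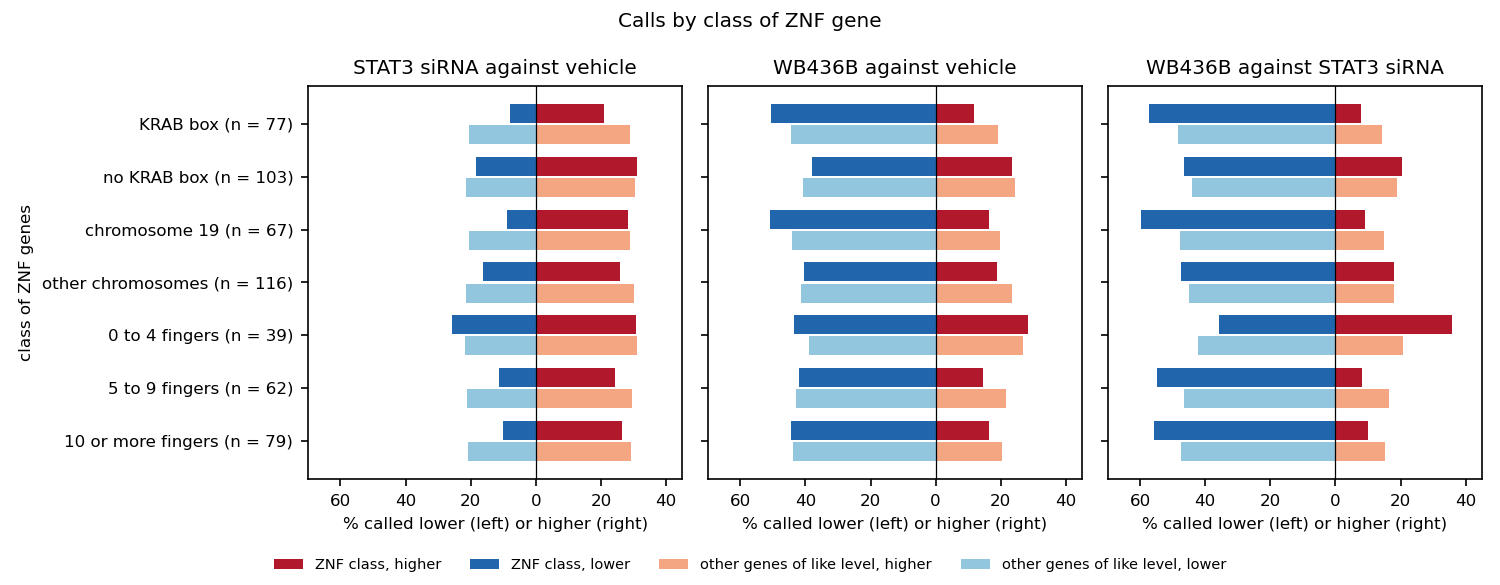
Percent of each ZNF class called higher (red, right) or lower (blue, left), with the other genes of like mean FPKM in pale colours below each class. Under WB436B 50.6% of KRAB members and 37.9% of coding members without a KRAB box were lower, beside 44.6% and 40.7% of the other genes of like level.

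On chromosome 19, 55 members fell into 6 runs of ZNF genes in which neighbours lie no more than 500 kb apart and at least 3 members were expressed. Differences between runs were not tested. In the run from ZNF264 to ZNF446, none of 15 members rose and 11 fell under WB436B against vehicle, with a median log2 change of -0.45. Of other genes at the level of the chromosome 19 members 19.7% rose and 44.2% fell. For the run, median-of-ratios scaling and quantile normalization left 9 and 6 of them lower and none higher. Against STAT3 siRNA none of these 15 was higher and 13 were lower. Of other genes at the level of the chromosome 19 members 14.8% were higher and 47.9% lower. ZNF211, from this run, had 2.60, 2.65 and 2.62 FPKM under WB436B and 5.41, 5.39 and 5.57 FPKM after the siRNA, against 6.28, 6.37 and 6.15 FPKM under vehicle.

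The neighbouring run from ZNF628 to ZNF835 held 7 members, of which 1 rose and 6 fell under WB436B (median -0.74, and 1 and 4 under median-of-ratios scaling). ZNF784 had 1.44, 1.60 and 1.55 FPKM there under WB436B, against 3.64, 3.94 and 3.86 FPKM under vehicle. ZNF787 of the same run was the 1 that rose, with 12.2, 12.3 and 13.0 FPKM under WB436B against 9.24, 9.84 and 9.35 FPKM under vehicle. The run from ZNF565 to ZNF573 went the other way, with 2 of its 3 members higher under WB436B (ZNF146 and ZNF567) and none lower. In the run from ZNF175 to ZNF331, 5 of 18 rose and 8 fell under WB436B. Beside these runs, 19.7% of other genes at the level of the chromosome 19 members rose under WB436B and 44.2% fell. After STAT3 siRNA at most 4 members of a run were higher and at most 3 lower. Of all 67 members on chromosome 19, 28.4% rose and 8.96% fell after the siRNA. Among other genes of like level these shares were 29.1% and 20.6%.

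**Figure D5:**
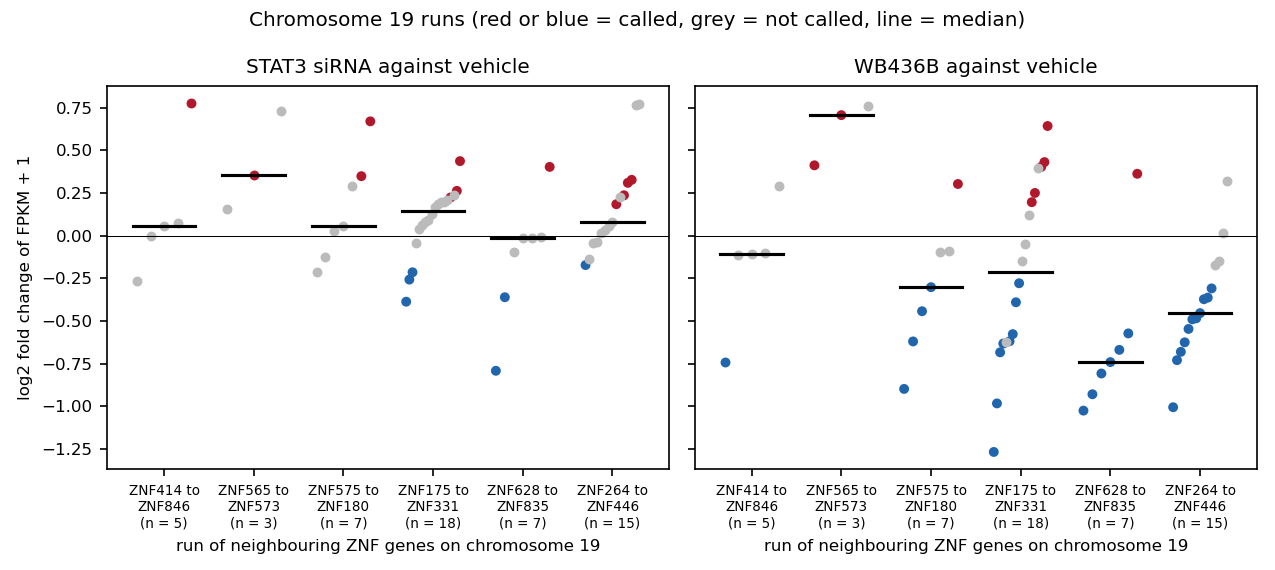
Log2 change of each ZNF gene in 6 runs of neighbouring ZNF genes on chromosome 19, named by their first and last ZNF gene. Points are genes, red or blue where called, and lines are medians. Under WB436B the last 2 runs have medians of -0.74 and -0.45, and the run from ZNF565 to ZNF573 has a median of 0.71.

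Upstream sequence was found for 153 of the 183 members. The STAT-type letters TTCNNNGAA stood in the 250 bases before the start of 14 of them (9.15%), beside 6.78% of 27305 genes with such a sequence. In 9 of the 14 the letters were TTCTGGGAA on either strand, a form found in 14.2% of the 1850 genes that hold TTCNNNGAA. This form is also part of the longer sequence that ZNF143 is known to bind, so the letters do not tell the factors apart. The short ZNF143-type letters ACTACAA stood before 11 members (7.19%), beside 2.64% of all genes, and the AP-1 letters TGANTCA before 9 (5.88%), beside 6.60%.

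Of the 14, 5 belong to 1 run of neighbours on chromosome 19, from ZNF575 to ZNF180, where 7 members were expressed. These are ZNF45, ZNF224, ZNF226, ZNF227 and ZNF234. All 5 carry a KRAB box, and none was called after STAT3 siRNA. Under WB436B ZNF224, known to repress aldolase A, had 2.93, 2.44 and 3.14 FPKM against 7.73, 6.06 and 4.87 FPKM under vehicle (log2 change -0.90, adjusted p = 0.0012), though 40.5% of its exon bases lie under another gene model. ZNF234 had 1.72, 1.46 and 1.62 FPKM under WB436B against 2.65, 2.63 and 2.32 FPKM under vehicle (-0.44, adjusted p = 0.00033), and ZNF226 fell by 0.62. Quantile normalization ended the calls of ZNF234 (-0.14) and ZNF226 (-0.33). ZNF227 and ZNF45 were not called (-0.10 and -0.09). So these 5 neighbours included members that fell under WB436B and members that did not pass the test. Among all members with upstream sequence, the letters stood before 7 of 66 that fell and 1 of 28 that rose under WB436B. After the siRNA they stood before 0 of 17 that fell and 1 of 41 that rose.

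The upstream bases of 3 of these neighbours show the shared letters. In capitals are TTCNNNGAA and, in ZNF227, also the reverse complement of ACTACAA. All are on the plus strand of GRCh38.p14 (RefSeq), at chr19:44094111-44094360 for ZNF224, chr19:44212282-44212531 for ZNF227 and chr19:44141304-44141553 for ZNF234. Each holds TTCNNNGAA 2 times, and the first match starts 101, 95 and 134 bases before the gene start in that order of names.
ZNF224: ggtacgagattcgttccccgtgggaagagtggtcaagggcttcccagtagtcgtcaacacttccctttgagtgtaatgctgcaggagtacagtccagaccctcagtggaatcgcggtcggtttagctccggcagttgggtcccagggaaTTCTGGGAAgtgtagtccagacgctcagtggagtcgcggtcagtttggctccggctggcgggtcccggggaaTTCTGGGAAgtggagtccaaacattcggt
ZNF227: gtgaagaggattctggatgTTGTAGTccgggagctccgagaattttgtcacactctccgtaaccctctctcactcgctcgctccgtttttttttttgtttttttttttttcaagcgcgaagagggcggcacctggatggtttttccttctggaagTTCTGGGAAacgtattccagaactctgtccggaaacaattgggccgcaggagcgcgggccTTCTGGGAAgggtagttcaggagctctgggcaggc
ZNF234: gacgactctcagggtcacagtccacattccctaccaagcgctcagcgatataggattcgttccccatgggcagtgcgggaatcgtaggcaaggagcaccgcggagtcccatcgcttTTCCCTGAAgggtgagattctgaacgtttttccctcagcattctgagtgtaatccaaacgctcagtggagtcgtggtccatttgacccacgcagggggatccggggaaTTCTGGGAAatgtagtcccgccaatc

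The corepressors and heterochromatin factors that KRAB proteins rely on were followed through a list of 27 tested genes. After STAT3 siRNA 11 rose and 7 fell, under WB436B 10 rose and 9 fell, and between the treatments 10 were higher and 11 lower under WB436B. Of all tested genes 29.8% and 22.3%, 24.9% and 41.1%, and 20% and 44.1% were called higher and lower in these comparisons. Under median-of-ratios scaling the list's counts under WB436B were 13 higher and 5 lower against vehicle, and 14 higher and 4 lower against the siRNA. TRIM28, the KRAB corepressor, had 128, 116 and 117 FPKM under WB436B and 102, 111 and 103 FPKM after the siRNA, against 72.3, 73.2 and 71.8 FPKM under vehicle. Its log2 changes were 0.72 under WB436B and 0.53 after the siRNA (adjusted p = 4.8e-06 and 6.2e-05). SETDB1, the histone methyltransferase of this pathway, had 3.49, 3.44 and 3.13 FPKM under WB436B and 4.67, 4.69 and 4.59 FPKM after the siRNA, against 4.73, 4.55 and 4.74 FPKM under vehicle, and it fell under WB436B (-0.38, adjusted p = 0.00017). It was also lower under WB436B than after the siRNA (-0.38, adjusted p = 0.00021), a call lost under median-of-ratios scaling (-0.10, adjusted p = 0.14).

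CBX5, which encodes the heterochromatin protein HP1 alpha, moved furthest between the treatments. It had 7.16, 7.40 and 7.67 FPKM under WB436B and 22.5, 21.1 and 21.7 FPKM after STAT3 siRNA, against 15.7, 15.9 and 14.5 FPKM under vehicle. WB436B was lower than the siRNA by 1.43 on the log2 scale (adjusted p = 2.2e-07). The maintenance methyltransferase DNMT1 and its partner UHRF1 rose in both comparisons against vehicle, by 0.63 and 1.16 under WB436B and by 0.52 and 1.00 after the siRNA. HDAC2, a histone deacetylase, rose by 0.66 under WB436B. SUV39H1, a histone methyltransferase that shares 20.3% of its exon bases with other gene models, rose by 0.84 under WB436B. Both exceeded their siRNA levels, by 0.72 and 0.70 on the log2 scale (adjusted p = 9.6e-06 and 0.00016). Other genes of the list were lower in some comparisons. CHD3 had log2 changes of -0.59 under WB436B and -0.21 after the siRNA (adjusted p = 6.4e-06 and 0.0044). CHD4 had -0.52 after the siRNA (adjusted p = 0.00033), though 53.5% of its exon bases lie under other gene models. KIAA1551, SMARCAD1 and EHMT2 were lower under WB436B than after the siRNA (-1.19, -0.73 and -0.52). After the siRNA these genes had risen against vehicle (0.56, 0.40 and 0.39). Under WB436B against vehicle KIAA1551 and SMARCAD1 fell (-0.63 and -0.33), and EHMT2 was not called (-0.13). In all, 10 of the 27 rose and 9 fell under WB436B against vehicle.

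Relatives of the ZNF genes that carry fingers under other names (ZFP, ZSCAN, ZKSCAN and ZBTB) numbered 39 at a mean of 2 FPKM or more. Under WB436B 3 of them rose and 23 fell, a median log2 change of -0.30, and under median-of-ratios scaling the count was 8 higher and 14 lower. Of all tested genes 24.9% rose and 41.1% fell. After STAT3 siRNA 11 of the 39 rose and 5 fell, beside 29.8% and 22.3% of all tested genes.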

How the data were processed

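RNA-seq levels of 9 BxPC3 libraries were analysed as FPKM, which the authors deposited in 1 table of genes by libraries. Bowtie 0.12.2 and mm8, a mouse build, appear in the submitters' processing notes. The deposited identifiers are human, so the true build is uncertain and no coordinates come from it. Which program made the FPKM values, with which annotation, and how it shared fragments between duplicated genes is not stated there. FPKM is relative to the library total, so it shows no absolute amounts.

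The 12747 genes that reached 1 FPKM in 3 or more of the 9 libraries were fitted as log2(FPKM + 1) with limma 3.58.1 in R 4.3.3 (1 mean per group, variance trend, 6 residual degrees of freedom), and called at a two-sided Benjamini-Hochberg adjusted p below 0.05. Fold changes refer to this scale, which understates those of weak genes. An exact permutation test of 3 against 3 libraries cannot go below p = 0.1. The fit was tested on simulated data. The other genes of like mean FPKM are all other tested genes in 5 ranges of level (limits 3, 5, 10 and 20 FPKM), weighted by the members per range. Depth was read off the smallest FPKM increments among genes of 1 transcript. Fingers and KRAB boxes were searched as letter patterns in translated coding sequences of GENCODE release 29, which held 96.5% of the table's identifiers, so variant boxes can be missed. Gene order on chromosome 19 is from the same annotation. For genes with several starts in RefSeq the first listed was used.

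Named members are the 12 with the largest called change per direction against vehicle, 8 per direction between the treatments (libraries not overlapping), the 6 most abundant, the role lists and those nearest the limit of 2 FPKM, with examples from chromosome 19 runs, members with the widest spread and members with shared motif letters added after their values were seen. Of the KRAB cofactor list, up to 6 per comparison by smallest adjusted p were eligible. The members and lists were chosen with earlier results of these data known. Alternatives were other pseudocounts (0.1, 0.5), filters, scalings, membership limits, a replicate block, fits of the compared groups alone and leaving out each library.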

Additional observations from a re-analysis of the deposited data

How the results depend on the processing

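Of 125 calls among 195 pairs of a named gene and a comparison, 99 kept call and direction under all settings run. For STAT3 siRNA against vehicle the members higher and lower numbered 25 and 10 under a filter of 5 FPKM, which tests 74 of the 183, 18 and 9 with membership at a mean of 5 FPKM, and 22 and 11 among members without shared exon bases, while membership at a mean of 1 FPKM gave 76 higher. For WB436B against vehicle, 55 were higher under median-of-ratios scaling, and 51 higher and 51 lower under quantile normalization. The filter left 32 lower, membership at 1 FPKM gave 127 lower, at 5 FPKM 19 higher and 19 lower, and without shared exon bases 15 and 36. For WB436B against STAT3 siRNA, 52 were higher under median-of-ratios scaling. The filter left 37 lower, membership at 1 FPKM gave 156 lower, at 5 FPKM 17 higher and 23 lower, and without shared exon bases 14 and 48. Fewer or more genes are counted under these filters and memberships. Membership at 1 FPKM held 277 genes, at 5 FPKM 53, and without shared exon bases 87. Counts under these settings thus cannot be set directly beside those of the 183. The cause of the changes with scaling was not tested.

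The median log2 change of the members minus that of other genes of like level was 0.0473 after the siRNA against vehicle (0.0667 with the filter of 5 FPKM, 0.0681 with membership at 5 FPKM, and 0.00593 without shared exon bases). Membership at 1 FPKM gave 0.0697, but the ranges of level start at 2 FPKM, so its members under 2 FPKM had no like genes. For WB436B against vehicle the difference of medians was -0.0194 (-0.0478 with the filter, -0.0346 under median-of-ratios scaling, 0.0262 with membership at 5 FPKM and 0.0143 without shared exon bases). For WB436B against the siRNA it was -0.106 (-0.152 with the filter and 0.00712 with membership at 5 FPKM). Leaving out 1 library in turn gave 37 to 50 higher and 21 to 24 lower after the siRNA against vehicle (difference of medians 0.0264 to 0.0571), 28 to 34 and 75 to 81 under WB436B against vehicle (-0.0612 to 0.00801), and 23 to 28 and 87 to 96 for WB436B against the siRNA (-0.151 to -0.0929).

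Under median-of-ratios scaling some genes were called in the turned direction, namely ZNF280C (0.17) for WB436B against vehicle and ZNF148 (0.19), ZNF202 (0.26) and ZNF473 (0.24) for WB436B against the siRNA. ZNF212 (0.0688) against vehicle and ZNF274 (0.0133) and ZNF777 (0.14) against the siRNA turned sign and lost their call. Under quantile normalization ZNF280C (0.23) against vehicle and ZNF202 (0.14) against the siRNA were called in the turned direction, while ZNF160 (0.0989) and ZNF274 (0.0860) against the siRNA turned sign and lost their call.

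Deviations of same-numbered libraries were only weakly correlated (-0.0847 to 0.158), and for STAT3 siRNA against vehicle all were positive (0.0419, 0.119 and 0.158). The labels do not say whether the numbers pair the samples, and correlations this weak cannot settle it. With a replicate block 41 members were higher and 24 lower after the siRNA against vehicle, 31 and 78 under WB436B against vehicle, and 28 and 91 for WB436B against the siRNA. Weaker members rest on fewer fragments per kilobase, and the effect of depth on their calls was not tested.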

Other observations

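Members named by their change but not yet described had these values. Among genes lower under WB436B, ZNF512 had 1.29, 1.32 and 1.95 FPKM under WB436B against 4.05, 4.63 and 4.62 FPKM under vehicle, and ZNF646, with 30 fingers, had 1.75, 1.82 and 1.49 FPKM under WB436B against 4.29, 5.76 and 4.25 FPKM under vehicle. ZNF440 stood at 0.835, 1.79 and 1.77 FPKM under WB436B against 3.82, 4.08 and 4.20 FPKM under vehicle, and ZNF524 at 1.62, 1.74 and 1.83 FPKM under WB436B against 5.03, 4.17 and 4.49 FPKM under vehicle. In each of these 4 genes the groups did not overlap. The pseudogene ZNF321P had 0.855, 0.722 and 0.577 FPKM under WB436B against 2.98, 2.49 and 4.05 FPKM under vehicle, and 40.2% of its exon bases lie under another gene model.

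Of genes higher in both comparisons against vehicle, ZNF777 had 10.0, 11.7 and 10.7 FPKM under WB436B and 12.3, 12.8 and 11.9 FPKM after STAT3 siRNA, against 7.99, 7.25 and 6.89 FPKM under vehicle. ZNF296 had 3.47, 4.07 and 3.55 FPKM under WB436B and 3.14, 3.31 and 3.51 FPKM after the siRNA, against 2.23, 1.88 and 1.76 FPKM under vehicle. ZNF761 had 7.21, 7.65 and 6.98 FPKM under WB436B and 5.97, 6.36 and 6.20 FPKM after the siRNA, against 4.03, 4.35 and 4.51 FPKM under vehicle. ZNF428 was higher after the siRNA, with 21.1, 23.0 and 23.8 FPKM against 12.7, 13.4 and 15.5 FPKM under vehicle, while its WB436B libraries held 11.9, 12.1 and 9.33 FPKM. ZNF277 was lower after the siRNA, with 2.86, 2.74 and 3.46 FPKM against 4.42, 5.18 and 6.53 FPKM under vehicle.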
